A study of Mus musculus with 12 samples.

Results

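The cells described here are CD8 T cells from the pancreatic islets of NOD mice whose transcriptomes held at least 1 unique molecular identifier (UMI, a tag that counts captured RNA molecules) of Klrg1 and at least 1 of Gzma, and none of Havcr2 or Mki67. The gate was applied to raw UMI counts after cells with 5% or more mitochondrial UMIs, or with gene numbers outside 200 to 3500, had been set aside. It took 138 of the 18163 islet cells that remained, or 0.760%, and the other 18025 islet cells served as the comparison within each library. The study sequenced pools of 10 prediabetic female NOD/ShiLtJ mice aged 10–15 wk in each of 2 rounds, and from each pool sorted 3 populations of CD45.1+ CD8+ cells negative for CD4, B220 and CD11b. Islet tetramer–negative cells, islet tetramer–positive cells and spleen tetramer–positive cells were thus each represented by 2 libraries, all from untreated mice of 1 strain. The tetramer was a class I (Kd) tetramer carrying the mimotope peptide NRP-V7, which marks T cells that see the beta cell protein IGRP. Spleen cells were additionally gated on CD44, a marker of antigen-experienced T cells. Each library had a matched T cell receptor (TCR) library.

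KLRG1 is an inhibitory lectin-like receptor that binds cadherins, and in infection its expression marks effector CD8 T cells that are far along in differentiation. Granzyme A, the product of Gzma, is a tryptase stored in cytotoxic granules beside perforin and the other granzymes. Havcr2 encodes TIM-3, a coinhibitory receptor of chronically stimulated T cells, and Mki67 is a marker of cycling cells. In this strain CD8 T cells enter the islets, recognize beta cell peptides on class I molecules and kill the beta cells through granule and Fas ligand pathways.

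The gated cells came almost entirely from the tetramer-negative sort. The islet tetramer–negative libraries held 53 of 6429 and 80 of 8932 gated cells in Rounds 1 and 2, and the islet tetramer–positive libraries held 2 of 1204 and 3 of 1598. The 133 tetramer-negative cells therefore carry the results below, and tetramer-positive values rest on 5 cells.

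The receptors of the gated cells came from many clones. A clone is a set of cells of 1 library that share the nucleotide sequences of the complementarity-determining region 3 (CDR3, the stretch of the receptor that contacts the peptide) of their only alpha and only beta chain. A pair could be assigned to 76 gated cells, which fell into 66 clones, and 9 clones held 2 or more gated cells. The CDR3 sequences of 4 of these 9 are shown because each clone brought 2 or more cells of the same lineage into the gate. Such cells are not independent of each other. They are written 5′ to 3′ in lower case, as the deposited contigs give them.
Round 1, 2 gated of 5 cells, TRAV6-4 TRAJ17, alpha: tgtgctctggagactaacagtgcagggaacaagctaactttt
Round 1, same clone, TRBV1 TRBJ1-5, beta: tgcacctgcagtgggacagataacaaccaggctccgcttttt
Round 2, 3 gated of 5 cells, TRAV3-3 TRAJ18, alpha: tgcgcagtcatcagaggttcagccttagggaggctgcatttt
Round 2, same clone, TRBV10 TRBJ1-4, beta: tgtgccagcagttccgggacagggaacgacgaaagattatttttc
Round 2, 2 gated of 4 cells, TRAV16N TRAJ18, alpha: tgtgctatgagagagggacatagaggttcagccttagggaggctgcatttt
Round 2, same clone, TRBV10 TRBJ2-4, beta: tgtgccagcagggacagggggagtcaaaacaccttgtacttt
Round 2, 2 gated of 4 cells, TRAV16N TRAJ49, alpha: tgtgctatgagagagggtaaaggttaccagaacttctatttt
Round 2, same clone, TRBV19 TRBJ1-1, beta: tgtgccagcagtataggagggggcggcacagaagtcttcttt

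All 3 tetramer-positive gated cells with a pair joined TRAV16N to TRAJ42 in the alpha chain and used TRBV13-3 in the beta chain. These segments were also the usual ones in the other paired islet tetramer–positive cells. There TRAV16N was used by 99.6% and 99.7%, TRAJ42 by 85.4% and 98.1% and TRBV13-3 by 87.5% and 92.7% in Rounds 1 and 2. The CDR3 sequences of these 3 gated cells are shown because their clones were also found among the spleen tetramer–positive cells of the same round. Each clone had at least 1 cell inside the same gate there. Such sharing was common in this sort, since 93.9% and 95.2% of the other paired islet tetramer–positive cells had their clone in that spleen (Rounds 1 and 2). In the 3 alpha sequences the capital marks the 1 of 45 bases that was not the same in all of them, whereas the 3 beta sequences were distinct.
Round 1, clone of 90 islet cells, alpha: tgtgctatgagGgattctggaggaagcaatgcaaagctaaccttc
Round 1, same clone, TRBJ2-4, beta: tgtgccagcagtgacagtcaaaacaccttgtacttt
Round 2, clone of 193 islet cells, alpha: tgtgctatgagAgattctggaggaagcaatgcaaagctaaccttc
Round 2, same clone, TRBJ2-2, beta: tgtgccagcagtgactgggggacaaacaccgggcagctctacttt
Round 2, clone of 39 islet cells, alpha: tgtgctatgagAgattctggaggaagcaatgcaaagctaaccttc
Round 2, same clone, TRBJ2-7, beta: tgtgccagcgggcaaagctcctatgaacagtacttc

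Depth differed between the gated cells and the rest, and every level below is read beside it. The kept cells of the 4 islet libraries summed to 29153324 and 40469961 UMIs (tetramer-negative) and to 5880696 and 7980997 UMIs (tetramer-positive), of which the gated cells gave 265927, 447833, 12536 and 21598. The median gated cell held 4223 and 5014 UMIs in the tetramer-negative libraries against 3790 and 3864 in the other cells, and 6268 and 7848 against 3800 and 4212 in the tetramer-positive libraries. Gated medians were higher in 4 of 4 libraries, by a mean of 1922 UMIs (exact two-sided sign-flip test over libraries, p = 0.13, the smallest 4 libraries allow). A productive beta chain beyond the first, 1 sign of a doublet, was seen in 3 of 53 and 3 of 80 tetramer-negative gated cells (5.66% and 3.75%, against 1.66% and 3.60% of the other cells) and in 0 of 5 tetramer-positive ones. No gated barcode occurred in the gate of another library, although pairs of libraries shared 2 to 64 barcodes in all.

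The gate mostly rested on 1 Klrg1 UMI and many Gzma UMIs. Klrg1 (chromosome 6, 122270596 to 122282882, minus strand, GRCm38) was seen as exactly 1 UMI in 99 of the 138 cells and reached 13. Gzma (chromosome 13, 113093825 to 113100981, minus strand) had a median of 12 UMIs and a maximum of 160. The gated sums stood at 297, 295, 160 and 139 CPM (UMIs scaled to a total of 1000000 per class and library) of Klrg1 and 3490, 5862, 399 and 370 CPM of Gzma in tetramer-negative Rounds 1 and 2 and tetramer-positive Rounds 1 and 2. These values follow from the gate and are given as a description. In the other cells Klrg1 ran from 4.37 to 8.18 CPM and Gzma from 33.7 to 154 CPM.

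Along the edge of the gate, Gzmb differed by class without 1 order that held in both rounds. Gzmb stood at 777 and 254 CPM (Rounds 1 and 2, tetramer-negative) in the 8 and 12 cells with 1 UMI of each gate gene. It stood at 758 and 2217 CPM in the 28 and 46 cells with 1 Klrg1 UMI and at least 2 Gzma UMIs, and at 1308 and 1330 CPM in the 16 and 20 cells with at least 2 UMIs of each. Just outside, it was at 343 and 272 CPM in the 51 and 62 cells with Klrg1 but no Gzma, and at 94.4 and 206 CPM in cells with 1 Gzma UMI but no Klrg1. The 191 and 347 cells with at least 2 Gzma UMIs but no Klrg1 held 718 and 692 CPM. The 17 and 27 cells with Klrg1 and Gzma that were left out for Havcr2 or Mki67 held 970 and 2321 CPM of Gzmb. These left-out cells also held 290 and 468 CPM of Serpinb9, 173 and 385 CPM of Ccr2 and 210 and 195 CPM of Fasl. Il12rb2 was at 43.3 and 92.7 CPM and Itga1 at 12.4 and 13.9 CPM in them. Transcripts described below as higher in the gated cells were thus not confined to the gate.

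Free RNA in the droplets sets a background for any share of cells with a UMI. Among cells with UMIs of Ccr7 and Lef1, which mark resting T cells that should lack the effector genes, 3.03% and 5.03% had a Gzma UMI and 0.722% and 0.817% a Klrg1 UMI in the tetramer-negative libraries. The whole gate was met by 4 of 2078 and 10 of 3303 of these cells, or 0.192% (95% exact binomial interval 0.0525 to 0.492) and 0.303% (0.145 to 0.556), at median depths of 3731 and 3851 UMIs. The gate share was 0.824% (0.618 to 1.08) and 0.896% (0.711 to 1.11) of tetramer-negative islet cells, which was higher in each round, with intervals that did not overlap. It was 0.166% (0.0201 to 0.599) and 0.188% (0.0387 to 0.548) of tetramer-positive islet cells. The tetramer-positive libraries held too few cells with Ccr7 and Lef1 UMIs (33 and 64, of which 0 met the gate) for a background of their own, and their shares lay below that of the tetramer-negative libraries, so no gated population above background was shown in them. In the spleen the same gate took 3.92% (3.30 to 4.61) and 4.94% (4.11 to 5.88) of tetramer-positive cells. Intervals cover counting error only. Tetramer-positive islet shares were lower by 0.683 points on average, and the groups did not overlap (exact two-sided permutation test, p = 0.333, the smallest that 2 against 2 libraries allow). With every cell thinned to 2000 UMIs the shares were 0.466% and 0.481% against 0.0965% and 0.0675%, and 2.84% and 3.74% in the spleen.

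**Figure D1:**
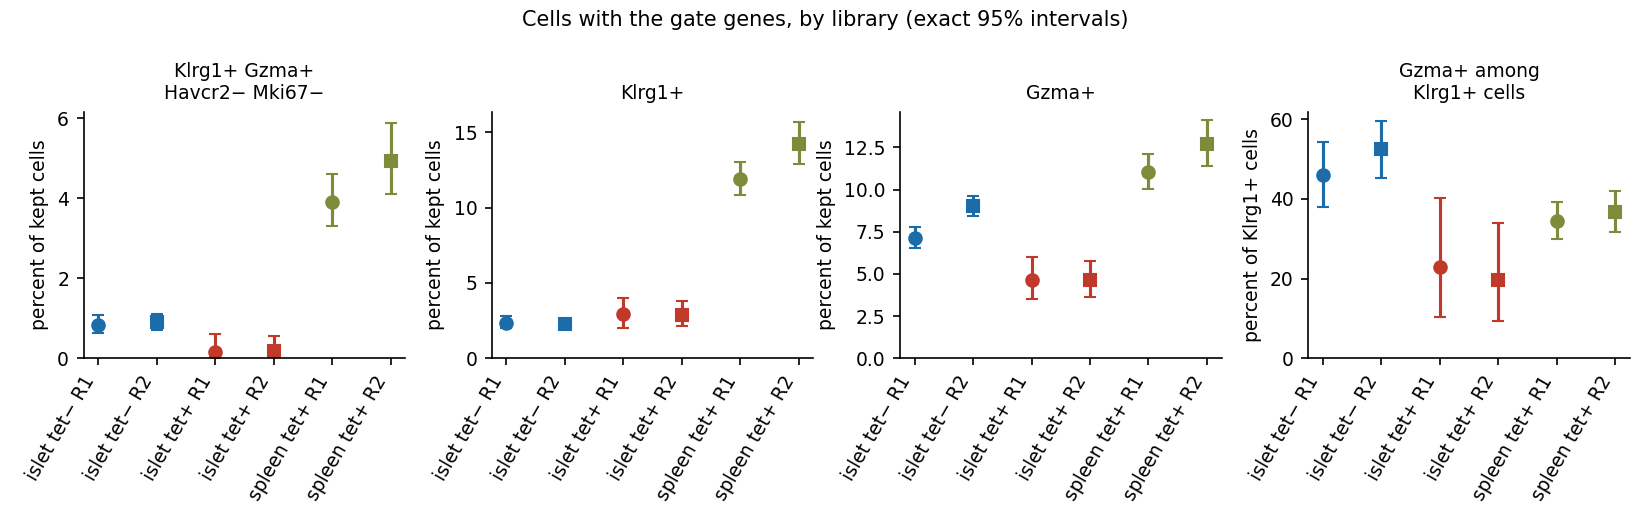
Percent of kept cells inside the gate, with a Klrg1 UMI, with a Gzma UMI, and of Klrg1+ cells with a Gzma UMI (y axes) in the 6 libraries (x axes), with exact 95% binomial intervals. The tetramer-positive islet libraries sit at 22.9% and 19.6% in the last panel, below the tetramer-negative (46.1% and 52.5%) and spleen libraries (34.4% and 36.7%).

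The lower tetramer-positive share did not go with fewer Klrg1+ cells. Klrg1 UMIs were found in 2.36% and 2.28% of tetramer-negative and in 2.91% and 2.88% of tetramer-positive islet cells, and Gzma UMIs in 7.14% and 9.03% against 4.65% and 4.63%. Gzma was present in 46.1% and 52.5% of Klrg1+ tetramer-negative cells and in 22.9% (8 of 35) and 19.6% (9 of 46) of Klrg1+ tetramer-positive cells. Of the latter 17 cells, 6 in each round also held Havcr2 or Mki67 and so lay outside the gate. None of the 5 tetramer-positive gated cells had 2 UMIs of both genes.

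The label was checked against its remaining markers, which gave unequal answers. Ccr2, the receptor that brings cells to CCL2, stood at 380, 219, 0 and 232 CPM in the gated cells (tetramer-negative Rounds 1 and 2, tetramer-positive Rounds 1 and 2) and at 60.1, 58.1, 44.8 and 77.6 CPM in the other cells. It was higher in every library but the tetramer-positive Round 1 library, where no UMI was counted in 2 cells, and it rose by 2.00 ± 0.21 (SE) on the log2 scale (edgeR quasi-likelihood test with Benjamini-Hochberg adjustment over 9898 genes, adjusted p = 1.37e-17). Ifitm1, an interferon-induced membrane protein, stood at 0, 8.93, 0 and 0 CPM against 11.5, 4.15, 1.36 and 0 CPM, and 1 of the 133 tetramer-negative gated cells held a UMI of it. Ifitm1 thus did not mark these cells (log2 change −0.40 ± 0.64, adjusted p = 0.89).

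The gated cells were T cells by their receptor and coreceptor genes. Cd3e was detected in 133 of the 133 tetramer-negative gated cells, Cd8a in 111, Cd8b1 in 107 and Trbc2 in 85, and none of the 10 CD8 T cell genes tested passed in either direction against the other islet cells. Cd4, the B cell genes Cd79a and Ms4a1, the myeloid gene Lyz2 and the insulin genes Ins1 and Ins2 were at 0 UMIs in these 133 cells. The whole marker lists were not at 0 for CD4 T, B and myeloid cells. In tetramer-negative Rounds 1 and 2, summed CD4 T cell markers stood at 7.52 and 8.93 CPM against 2.25 and 2.40 CPM in the other cells. B cell markers stood at 67.7 and 46.9 against 89.1 and 61.7 CPM, and myeloid markers at 248 and 219 against 274 and 256 CPM. The defining NK cell genes Klrb1c and Klra8 were at 0, and Ncr1 and Foxp3 were each seen in 1 cell. Summed over 6 NK cell genes, the level was 94.0 and 190 CPM in the tetramer-negative gated cells and 0 in the tetramer-positive ones, against 6.0 to 28.7 CPM in the other cells, with UMIs mostly of Il12rb2 and Klra4, and its part in the results was not tested. Summed pancreatic exocrine genes were at 109 and 60.3 CPM in the tetramer-negative gated cells and at 0 in the tetramer-positive ones, below the 64.1 to 502 CPM of the other cells in each library, and 10 of the 13 tested fell.

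Against the other islet cells, the gated cells carried more of the cytotoxic program and less of the resting and coinhibitory programs. Over the 4 islet libraries 120 of 9898 tested genes were higher (1.21%) and 185 were lower (1.87%) at an adjusted p under 0.05, with library as a block. In the tetramer-negative libraries alone, a setting chosen after seeing the data, 287 of 11362 were higher (2.53%) and 451 lower (3.97%). Of the 4-library calls, 91 of 120 higher and 174 of 185 lower ones were among them (75.8% and 94.1%), which are 31.7% and 38.6% of the longer lists. Leaving out tetramer-negative Round 2 left 8 and 9 calls, leaving out Round 1 left 39 and 49, and DESeq2 called 11 and 74, and of 33 called genes followed by name 4, 14 and 2 passed again. The 5 tetramer-positive cells weighed less, since 31 of the 33 passed when either of their libraries was left out. The median of all genes was shifted by −0.105 (−0.0922 in the tetramer-negative libraries), so changes are read against that value. Levels in all paragraphs are CPM of the UMIs summed over the cells of 1 class in 1 library, and in the order tetramer-negative Rounds 1 and 2, tetramer-positive Rounds 1 and 2.

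Among the granule and death ligand genes, 3 of 12 tested rose in 4 libraries and 6 of 12 in the tetramer-negative libraries, and none fell. Gzmb (chromosome 14, 56258838 to 56262260, minus strand), which encodes the caspase-activating granzyme B, stood at 891, 1583, 0 and 0 CPM in gated cells and at 117, 156, 186 and 224 CPM in the other cells. Tetramer-negative gated cells lay far above and tetramer-positive ones at 0, and the change was 1.90 ± 0.32 over 4 libraries (adjusted p = 1.24e-06) and 3.03 ± 0.10 in the tetramer-negative libraries, where 105 of 133 cells held a UMI. Over 4 libraries DESeq2 gave Gzmb a value of −0.43, the opposite direction. Gzmk (chromosome 13, 113171608 to 113225908, minus strand), the neighbor of Gzma in the genome, stood at 786, 614, 798 and 324 CPM against 198, 223, 280 and 318 CPM. It was higher in 4 of 4 libraries, though barely in the last, and rose by 1.11 ± 0.28 (adjusted p = 0.00587). Fasl, the ligand that triggers the Fas death receptor, stood at 237, 351, 79.8 and 232 CPM against 57.3, 67.6, 74.6 and 117 CPM. It rose by 1.85 ± 0.22 (adjusted p = 1.3e-13) and was detected in 98 of the 133 cells. The pore-forming perforin gene Prf1 (0.74 ± 0.22), Nkg7 (0.75 ± 0.07) and the protease gene Ctsw (0.33 ± 0.10) passed only in the fit of the tetramer-negative libraries.

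Serpin genes, whose products block granzymes and other proteases inside the killer cell, rose with the granzymes. Serpinb9, the granzyme B inhibitor, stood at 275, 500, 0 and 278 CPM in gated cells and at 48.6, 83.2, 42.8 and 91.1 CPM in the other cells. It rose by 2.20 ± 0.23 (adjusted p = 1.19e-18), with 94 of 133 cells positive. Serpinb6b stood at 237, 337, 319 and 92.6 CPM against 67.5, 72.9, 64.6 and 86.2 CPM, higher in every library, and rose by 1.76 ± 0.22 (adjusted p = 1.03e-12). Serpinb1a also rose (2.09 ± 0.46, adjusted p = 0.0122), so that 3 of 3 tested members were called in 4 libraries. The list had 6 members, and those not tested give no result in either direction. In the tetramer-negative libraries 2 of 4 were, without Serpinb1a (adjusted p = 0.0992). Members of this family, of the Klra family and Ccl3 have close copies in the mouse genome, and how the counting split their reads is uncertain. Ctla2b, a cathepsin inhibitor gene first found in T cells, rose by 1.54 ± 0.27.

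Of 14 killer lectin-like and NK-associated receptor genes, 4 rose and 2 fell over 4 libraries, and 5 of 18 rose and 1 fell in the tetramer-negative libraries. The activating receptor gene Klrk1 (NKG2D) stood at 297, 201, 79.8 and 232 CPM against 101, 88.4, 206 and 225 CPM, so that the difference lay in the tetramer-negative libraries (0.84 ± 0.25, adjusted p = 0.0332, and 1.22 ± 0.15 in those libraries). Klre1, a partner of the inhibitory lectins, rose by 1.04 ± 0.24 (adjusted p = 0.00158), and the sparse genes Klra9 (3.87 ± 0.60) and Klrc3 (2.85 ± 0.52) rose in the 4-library fit only. Klri2 and Cd7 were the members that fell. Klri2 had no UMI in the gated cells, and Cd7, an immunoglobulin-family receptor gene of T and NK cells, fell by 1.12 on the log2 scale.

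Genes of terminal effector differentiation rose in part. Across 4 libraries 4 of 15 tested members rose, and in the tetramer-negative libraries 10 of 16 rose and 1 fell. S1pr5 (chromosome 9, 21242912 to 21248443, minus strand), a receptor for sphingosine-1-phosphate that draws cells out of tissue, stood at 26.3, 53.6, 0 and 0 CPM in gated cells and at 0.312, 0.675, 0 and 0.126 CPM in the other cells. It was near 0 in the other cells taken as a whole and was found in 16 of the 133 cells, with a fitted change of 6.19 ± 0.32. S1pr5 passed the low-count filter only through the gated sums, so its direction was fixed by the filter and is a description with no test. Just outside the gate, tetramer-negative cells left out for Havcr2 or Mki67 held 0 and 18.5 CPM of S1pr5. Those with at least 2 Gzma UMIs but no Klrg1 held 3.33 and 7.67 CPM. Cx3cr1, the fractalkine receptor, stood at 11.3, 33.5, 0 and 0 CPM against 6.51, 5.67, 11.6 and 13.4 CPM, and rose by 1.69 ± 0.42 (adjusted p = 0.00376) with 13 positive cells. Hopx, a homeodomain-only cofactor of effector cells, stood at 263, 223, 239 and 92.6 CPM against 75.4, 67.1, 87.4 and 59.0 CPM. It was higher in 4 of 4 libraries and rose by 1.52 ± 0.22 (adjusted p = 2.11e-09). Zeb2, the repressor that works with T-bet, stood at 90.3 and 161 CPM against 63.1 and 69.2 CPM in the tetramer-negative libraries and rose there (0.85 ± 0.18). It did not pass over 4 libraries, where its value without tetramer-negative Round 2 was −0.33. Tbx21, which encodes T-bet, did not pass in either fit (0.51 ± 0.19, adjusted p = 0.0915, tetramer-negative libraries). Klf2 fell there by 0.48 on the log2 scale.

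Among the homing receptors, the inflammatory chemokine receptor gene Ccr2 was higher, as given above, and the lymphoid homing receptor gene Ccr7 was lower. Ccr7 stood at 90.3, 174, 79.8 and 92.6 CPM against 470, 952, 153 and 316 CPM and fell by 2.49 on the log2 scale (adjusted p = 9.79e-10). Cxcr6, a receptor of tissue T cells, was at 297, 397, 319 and 833 CPM against 223, 265, 446 and 658 CPM and did not pass over 4 libraries (0.05 ± 0.28, adjusted p = 0.979). Of 19 egress and homing genes, 3 rose and 2 fell, and in the tetramer-negative libraries 9 of 20 rose and 3 fell.

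The cytokine receptor genes that rose were those for IL-12 and IL-18, which drive interferon-γ in T cells, and for IL-10. Il12rb2 stood at 75.2, 172, 0 and 0 CPM against 21.4, 26.8, 2.73 and 3.27 CPM and rose by 2.30 ± 0.23 (adjusted p = 3.57e-20), with 52 of 133 cells positive. Il18rap stood at 79.0, 145, 0 and 139 CPM against 29.6, 28.5, 13.5 and 18.5 CPM and rose by 1.91 ± 0.24 (adjusted p = 7.92e-13), with 60 cells positive. Il10ra rose by 0.94 ± 0.26 (adjusted p = 0.0133). Among the 3 of 15 that fell, Il7r, the survival receptor of resting and memory T cells, fell by 1.78 on the log2 scale. Of 9 effector cytokine and chemokine genes 1 rose and 2 fell. Ifng stood at 139, 185, 0 and 46.3 CPM against 73.5, 66.5, 76.9 and 82.7 CPM, higher in the tetramer-negative libraries alone, and was called over 4 libraries (0.96 ± 0.23, adjusted p = 0.00307). Xcl1, which attracts cross-presenting dendritic cells, went the other way at 94.0, 49.1, 0 and 0 CPM against 314, 292, 633 and 612 CPM, and fell by 2.65 (adjusted p = 3.9e-11).

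**Figure D2:**
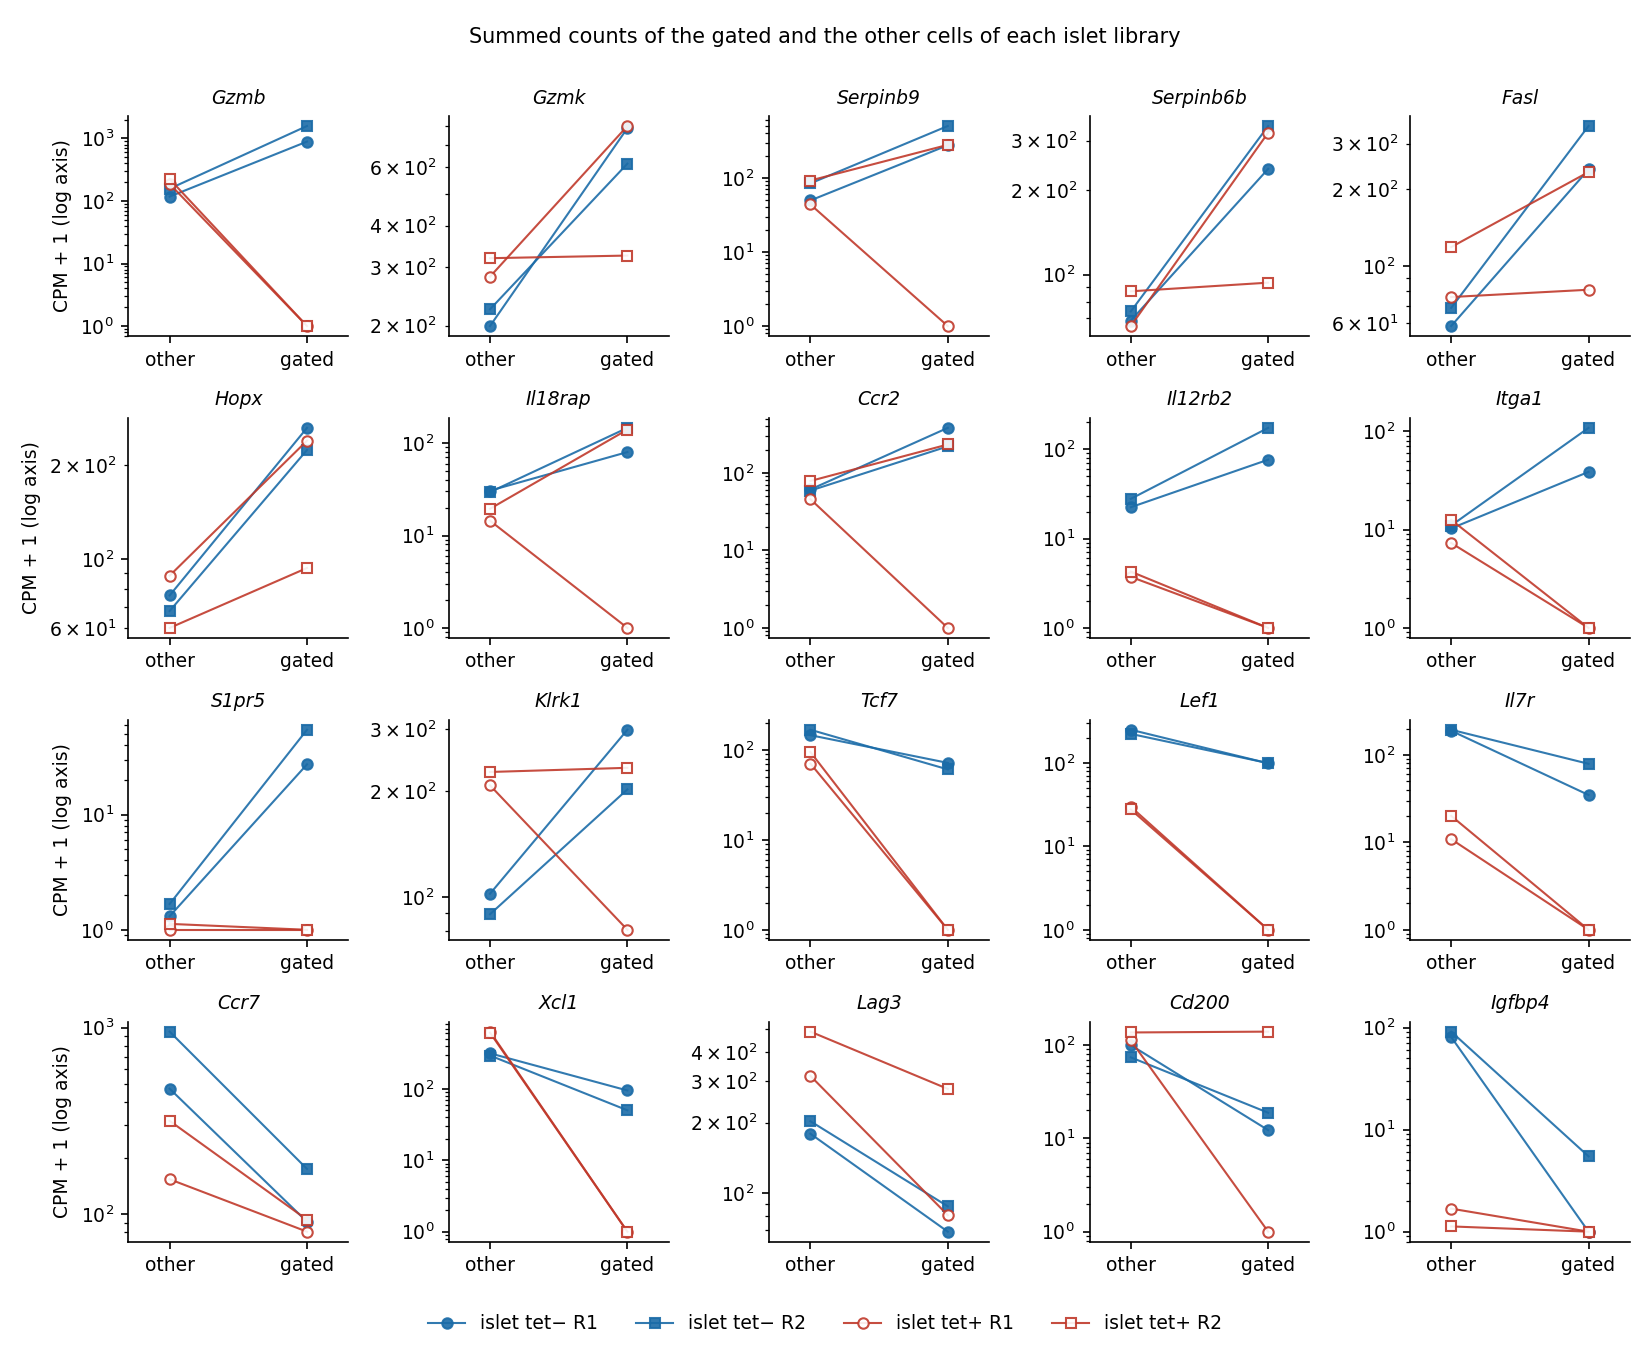
Levels of 20 genes in the other cells (left of each panel) and the gated cells (right) of the 4 islet libraries, as CPM + 1 on a log axis, with a line per library. Gzmk, Fasl, Serpinb6b and Hopx were higher in the gated cells of every library, whereas Gzmb and Il12rb2 were higher in the 2 tetramer-negative libraries and had no UMI in the 5 tetramer-positive gated cells.

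Genes of resting, stem-like and memory T cells were lower. Of 14 tested, 8 fell and none rose over 4 libraries, with a median of −1.37 beside −0.105 for all genes, and 11 of 14 fell in the tetramer-negative libraries. Tcf7, which encodes the stemness factor TCF-1, stood at 71.4, 60.3, 0 and 0 CPM against 146, 169, 70.2 and 94.9 CPM and fell by 1.47 (adjusted p = 7.23e-05). Its partner Lef1 fell by 1.37 and the folate receptor family gene Izumo1r by 2.64 on the log2 scale. The immediate early genes Jun and Fos, which respond to stimulation and to handling of tissue, fell by 1.59 and 1.12. The 12 genes with the largest falls outside the gate and receptor segments included the IGF-binding protein gene Igfbp4 (−5.04 ± 0.62), the opioid peptide gene Penk (−3.12 ± 0.49) and Nrn1, the neuritin gene, which had no UMI in the gated cells and was at least 8.56-fold lower in the tetramer-negative libraries at a floor of 3 counts. They also included the digestive enzyme genes Cela2a and Prss2, which the exocrine pancreas makes.

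Among the 12 genes with the largest rises that held in every library, 6 belonged to none of the groups above. The uncharacterized gene 1500009L16Rik stood at 26.3, 24.6, 399 and 46.3 CPM against 6.78, 5.17, 13.8 and 4.65 CPM and rose by 2.33 ± 0.38, on 13 of the 133 tetramer-negative cells and a high value in the 2 cells of tetramer-positive Round 1. Cemip2, a cell surface hyaluronidase gene, stood at 79.0, 71.5, 79.8 and 46.3 CPM against 28.9, 25.4, 35.4 and 33.9 CPM and rose by 1.27 ± 0.28. Galnt7, a gene of mucin-type glycosylation, rose by 1.39 ± 0.32, the leukotriene receptor gene Cysltr2 by 1.55 ± 0.43, D1Ertd622e by 1.32 ± 0.37 and Armc7 by 1.13 ± 0.25. Of these, Cysltr2 and D1Ertd622e did not pass in the tetramer-negative libraries (adjusted p = 0.191 and 0.0900). On the other side, Ifngr2, the signaling chain of the interferon-γ receptor, stood at 0, 6.70, 0 and 0 CPM against 42.7, 50.7, 0.511 and 0.377 CPM, and it fell by 3.60 on levels that lay in the tetramer-negative libraries. Ramp1, a partner of the receptor for the neuropeptide CGRP, stood at 7.52, 4.47, 0 and 0 CPM against 59.9, 55.8, 29.8 and 34.7 CPM and fell by 3.51. The chemokine gene Cxcl10, an interferon target, fell by 2.76, and Tdrp (−3.57 ± 0.59), Shld1 (−3.25 ± 0.72), Ppp2r3a (−3.08 ± 0.75) and Patj (−2.93 ± 0.52) fell as well.

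Of 11 coinhibitory receptor genes tested, 3 fell and none rose over 4 libraries, and 5 fell in the tetramer-negative libraries. Lag3, a class II-binding coinhibitory receptor, stood at 67.7, 87.1, 79.8 and 278 CPM against 179, 202, 316 and 488 CPM, lower in every library, and fell by 1.48 (adjusted p = 0.000439). Ctla4, which competes for B7 ligands, stood at 158, 199, 0 and 139 CPM against 258, 386, 270 and 477 CPM and fell by 1.23 (adjusted p = 0.00469). Pdcd1, which encodes PD-1, stood at 267, 185, 239 and 556 CPM against 291, 274, 569 and 719 CPM. It was lower in 4 of 4 libraries but did not pass over them (−0.73 ± 0.29, adjusted p = 0.173), and it fell by 0.50 in the tetramer-negative libraries. Since the gate excludes Havcr2, the fit was repeated against other cells without Havcr2 and Mki67, where Lag3 was still lower (−1.30). Tox, an exhaustion factor, fell in the tetramer-negative libraries alone, by 0.83.

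The residency genes split. Of 12 tested, 2 rose and 3 fell. Itga1, the collagen-binding integrin CD49a, stood at 37.6, 107, 0 and 0 CPM against 9.28, 9.99, 6.31 and 11.6 CPM and rose by 2.76 ± 0.28 (adjusted p = 6.19e-19), with 31 of 133 cells positive. Itgae, the E-cadherin-binding integrin CD103, stood at 0, 24.6, 0 and 0 CPM against 48.1, 57.5, 6.13 and 22.2 CPM and fell by 1.95 (adjusted p = 0.000365), with 4 positive cells. Zfp683, which encodes the residency factor Hobit, rose (2.64 ± 0.55, adjusted p = 0.0248), but did not pass in the tetramer-negative libraries (adjusted p = 0.253). S1pr5 and Itga1 were found together in 7 cells, S1pr5 without Itga1 in 9 and Itga1 without S1pr5 in 24.

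Of 90 ribosomal protein genes 19 fell and none rose, and 78 of 92 fell in the tetramer-negative libraries, whose gated cells had the higher median UMI counts given above. The exhaustion and activation factors gave 2 falls among 14 tested, the immediate early genes 2 among 13, the cell cycle genes 2 among 14 and the interferon-stimulated genes 1 rise and 1 fall among 16. In the tetramer-negative libraries these lists gave 6 falls among 14, 7 falls and 1 rise among 14, 4 falls among 14, and 4 rises and 3 falls among 18. The myeloid list gave 1 rise and 3 falls among 6 tested of 13 members, and the NK cell list 2 rises among 2 tested of 7. No tested gene of the γδ T cell (2), CD4 T cell (1), B cell (3) or endocrine (1) lists passed. None of 13 mitochondrial genes passed over 4 libraries, and 8 fell in the tetramer-negative ones. Among S100, annexin and cytoskeletal genes 2 of 17 rose over 4 libraries, of which Anxa1 (2.73 ± 0.44) was 1, and 15 of 17 rose in the tetramer-negative libraries, among them Lgals1 (1.21 ± 0.07). The chemokine gene Ccl5, an abundant transcript of memory and effector CD8 cells, stood at 27256, 23256, 10370 and 12548 CPM against 9100, 7613, 17902 and 17075 CPM. The tetramer-positive pair turned the other way, so that Ccl5 rose by 1.46 ± 0.05 in the tetramer-negative libraries and by 0.08 ± 0.22 (not called) over all 4.

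**Figure D3:**
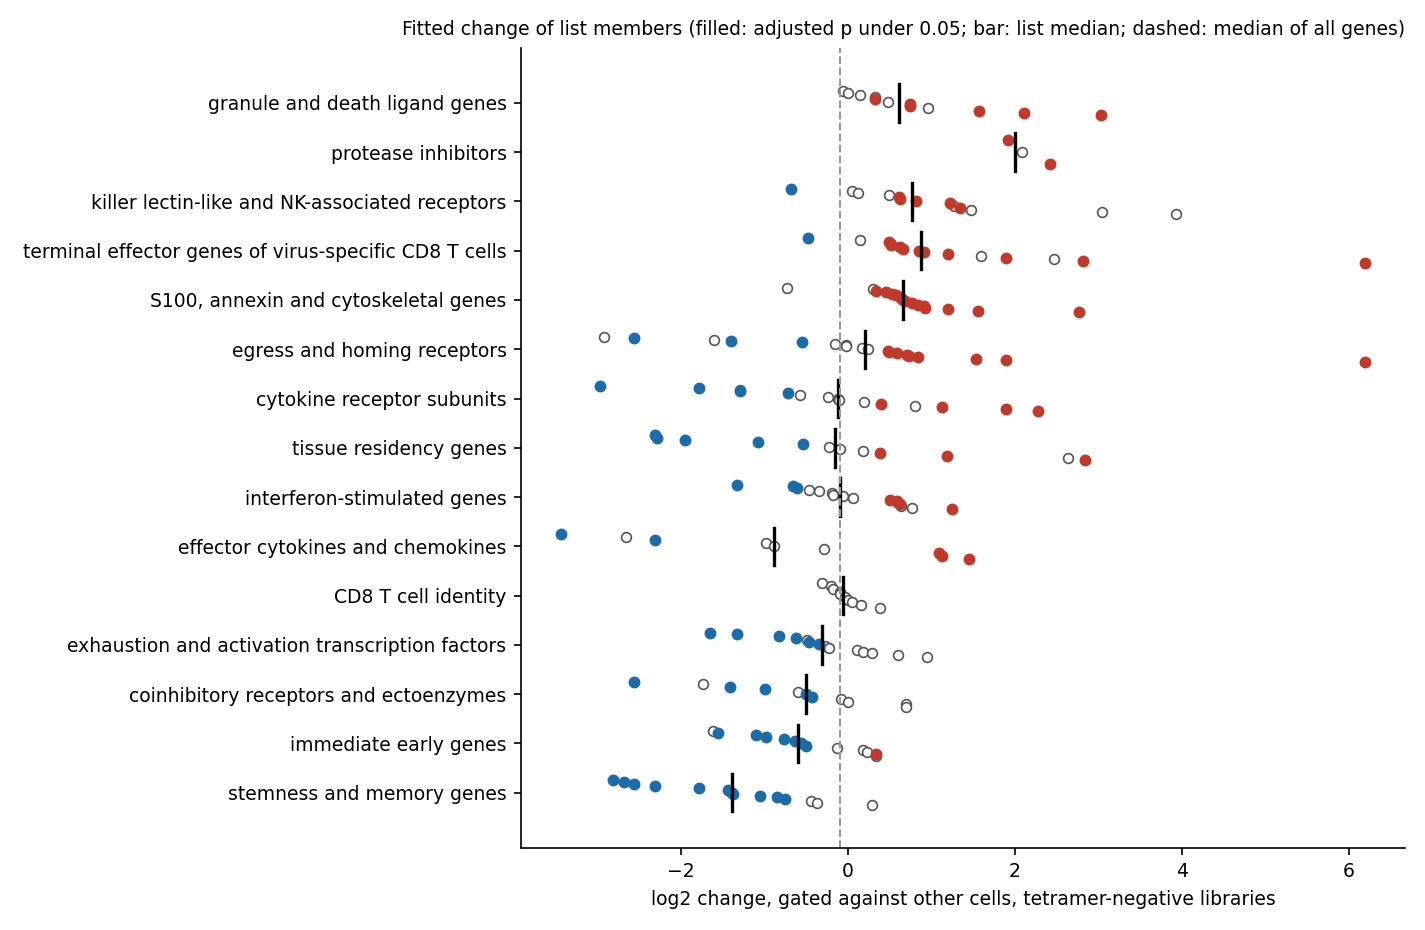
Log2 change of each tested gene of the gene lists between gated and other cells of the tetramer-negative libraries, with list medians as bars, genes past an adjusted p of 0.05 filled, and the median of all genes dashed. The stemness and memory list sits lowest among the T cell program lists, with a median of −1.39. The protease inhibitors sit highest, at 2.00, on 4 tested of 6 members.

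Set against the Havcr2+ Pdcd1+ islet cells without Mki67 (210, 333, 129 and 222 cells in tetramer-negative Rounds 1 and 2 and tetramer-positive Rounds 1 and 2), the gated cells differed in genes of the egress, stemness, coinhibitory and granule lists. Of 6702 genes, 86 were higher (1.28%) and 123 lower (1.84%) over 4 libraries. In the tetramer-negative libraries 190 of 7069 were higher (2.69%) and 220 lower (3.11%). They held 84 of the 86 and 120 of the 123 (97.7% and 97.6%), which are 44.2% and 54.5% of the longer lists. Without tetramer-negative Round 2 the counts were 5 and 20, without Round 1 18 and 26, and DESeq2 called 13 and 34. The comparison population was picked on Havcr2 and Pdcd1, so these genes are no result here.

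Of 12 granule genes 1 was higher and 1 lower over 4 libraries, and 5 were higher and 2 lower in the tetramer-negative libraries. Gzmb stood at 891 and 1583 CPM in the tetramer-negative gated cells against 609 and 563 CPM in the Havcr2+ Pdcd1+ cells, a difference called in those libraries (1.09, adjusted p = 1.68e-10) and not over 4 (0.22 ± 0.27, adjusted p = 0.91). The granzyme M gene Gzmm was the member that was higher over 4 libraries (2.57 ± 0.60, adjusted p = 0.00125). Nkg7 was the member that was lower over them (−0.84 ± 0.25, adjusted p = 0.026). Serpinb9 (1.49 ± 0.22) and Serpinb6b (0.98 ± 0.22) were higher, Serpinb9 at 275 and 500 against 94.0 and 142 CPM in the tetramer-negative libraries. Of 9 killer lectin-like and NK-associated receptor genes 0 were higher and 3 lower over 4 libraries, and 2 were higher and 4 lower in the tetramer-negative libraries. Terminal effector genes split evenly, with 3 higher and 3 lower of 12 over 4 libraries and 4 and 4 of 12 in the tetramer-negative libraries.

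Some egress regulators separated these populations. Of 18 egress and homing genes tested, 3 were higher and 1 lower over 4 libraries, and 7 were higher and 2 lower in the tetramer-negative libraries. Klf2, the factor that keeps S1pr1 on, stood at 414 and 411 CPM in tetramer-negative gated cells against 123 and 153 CPM and was higher by 1.49 ± 0.21 (adjusted p = 1.14e-09). That target, S1pr1, was higher by 1.79 ± 0.28, and Klf3 by 2.33 ± 0.26. S1pr5 had no UMI in the tetramer-negative Havcr2+ Pdcd1+ cells and was at least 46.7-fold higher in the gated cells at the floor of 3 counts. Tcf7 was at 71.4 and 60.3 CPM against 17.3 and 32.4 CPM and Lef1 also lay above (1.24 ± 0.34 and 1.44 ± 0.29), so the gated cells stood between the Havcr2+ Pdcd1+ cells and the remaining islet cells for these stemness factors. The stemness and memory list as a whole was mixed, with 2 of 12 genes higher and 2 lower over 4 libraries. In the tetramer-negative libraries 5 were higher and 2 lower. The gene of the RNA transporter family member Sidt1 (1.70 ± 0.22) and Cemip2 (1.46 ± 0.31) were also higher. Il12rb2 was at 75.2 and 172 against 11.5 and 9.95 CPM, a difference of 3.52 ± 0.32 (adjusted p = 3.39e-24).

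Several coinhibitory and chemokine genes were lower than in the Havcr2+ Pdcd1+ cells. Of 9 coinhibitory genes tested 5 were lower and none higher, with Lag3 (−2.68 ± 0.30), Ctla4 (−1.91 ± 0.28) and Cd200 (−2.91 ± 0.37) among them. Of 8 cytokine and chemokine genes 5 were lower, among them Ccl3 (−3.21 ± 0.39), Ccl4 (−1.73 ± 0.30) and Xcl1 (−2.85 ± 0.30). Cxcr6 was at 297 and 397 CPM in tetramer-negative gated cells against 997 and 1093 CPM, lower by 1.58 on the log2 scale over 4 libraries (adjusted p = 5.56e-07). Cd8a was lower (−0.97 ± 0.26), as were the myeloid class II genes, of which H2-Aa had no UMI in the gated cells and was at least 25.3-fold lower. Summed myeloid markers were at 248 and 219 CPM in the tetramer-negative gated cells against 1367 and 453 CPM in the Havcr2+ Pdcd1+ cells, and their part in the differences was not tested.

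The same gate in the spleen gave 138 and 120 tetramer-positive cells, and these differed from the gated islet cells in some migration genes. Of 15 egress and homing genes tested, 3 were higher and 3 lower in the tetramer-negative gated islet cells than in the spleen. Between the tetramer-negative gated islet cells and the gated spleen cells, a comparison added after seeing the data, 174 of 4886 genes were higher in the islets (3.56%) and 128 lower (2.62%). With the round as a block, 574 were higher and 504 lower, and without either islet library 0 and 0 were called. Tissue, tetramer and the CD44 sort differ together here and cannot be told apart. In the bulk of summed cells, fewer cells with a transcript and less of it per cell cannot be told apart either.

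Receptors of circulating effectors were the ones higher in the spleen. Cx3cr1 stood at 536 and 578 CPM in gated spleen cells against 11.3 and 33.5 CPM in the islets, a difference of −4.45 ± 0.37 (edgeR adjusted p = 0.00448). S1pr5 stood at 329 and 348 CPM against 26.3 and 53.6 CPM (−2.96 ± 0.31, adjusted p = 0.0051), and Klf2 at 1311 and 2040 CPM against 414 and 411 CPM (−1.96 ± 0.27, adjusted p = 0.0111). The tetramer-negative gated islet cells thus lay above the other islet cells and below the spleen cells for Cx3cr1 and S1pr5. For Cx3cr1 the Round 1 islet level was at the floor of 3 counts (11.3 CPM), so its place above the other islet cells rests on Round 2. Of 13 terminal effector genes 5 were lower in the islets and none higher, and Zeb2 was among the 5 (−1.50 ± 0.28, adjusted p = 0.0265). The chemokine gene Ccl3 (−3.77 ± 0.35) and the heat shock gene Hspa1b (−4.08 ± 0.69) were lower in the islets too. Klrg1 and Gzma, which the gate fixed, were at 641 and 645 CPM and at 3623 and 3307 CPM in the spleen.

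Several residency genes and single activation genes were higher in the islets. Activation genes as a group were mixed. Of 12 immediate early genes 1 was higher and 3 lower, and of 7 effector cytokine and chemokine genes 2 were higher and 2 lower. Itga1 stood at 37.6 and 107 CPM against 0 and 3.19 CPM (5.36 ± 0.97, adjusted p = 0.0253), and 5 of 8 residency genes were higher and none lower. Gzmb stood at 891 and 1583 CPM against 174 and 246 CPM (2.61 ± 0.33, adjusted p = 0.0094), whereas Gzmk, at 826 and 811 CPM in the spleen, did not pass (−0.17 ± 0.24, adjusted p = 0.739). Serpinb9 stood at 275 and 500 against 21.0 and 31.9 CPM (3.92 ± 0.39, adjusted p = 0.0051). Of 7 coinhibitory genes 3 were higher, and these were Ctla4 (4.05 ± 0.42), Pdcd1 (2.14 ± 0.34) and Tigit (1.33 ± 0.31). The costimulatory receptor gene Tnfrsf9, which T cells turn on after antigen, was at 184 and 134 CPM against 2.99 and 0 CPM (6.41 ± 0.65), and Ramp3, a receptor activity-modifying protein gene, at 154 and 197 CPM, had no UMI in the spleen and was at least 39.0-fold higher. Rgs10, a brake on G protein signaling, likewise had no UMI in the spleen (at least 12.7-fold higher in the islets), and Socs3, a cytokine feedback inhibitor, was higher by 5.77 ± 0.73. Il12rb2 was higher by 4.73 ± 0.78 and the cysteine-rich protein gene Plac8 by 7.14 ± 0.99, at 117 and 395 CPM against 0 and 3.19 CPM.

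**Figure D4:**
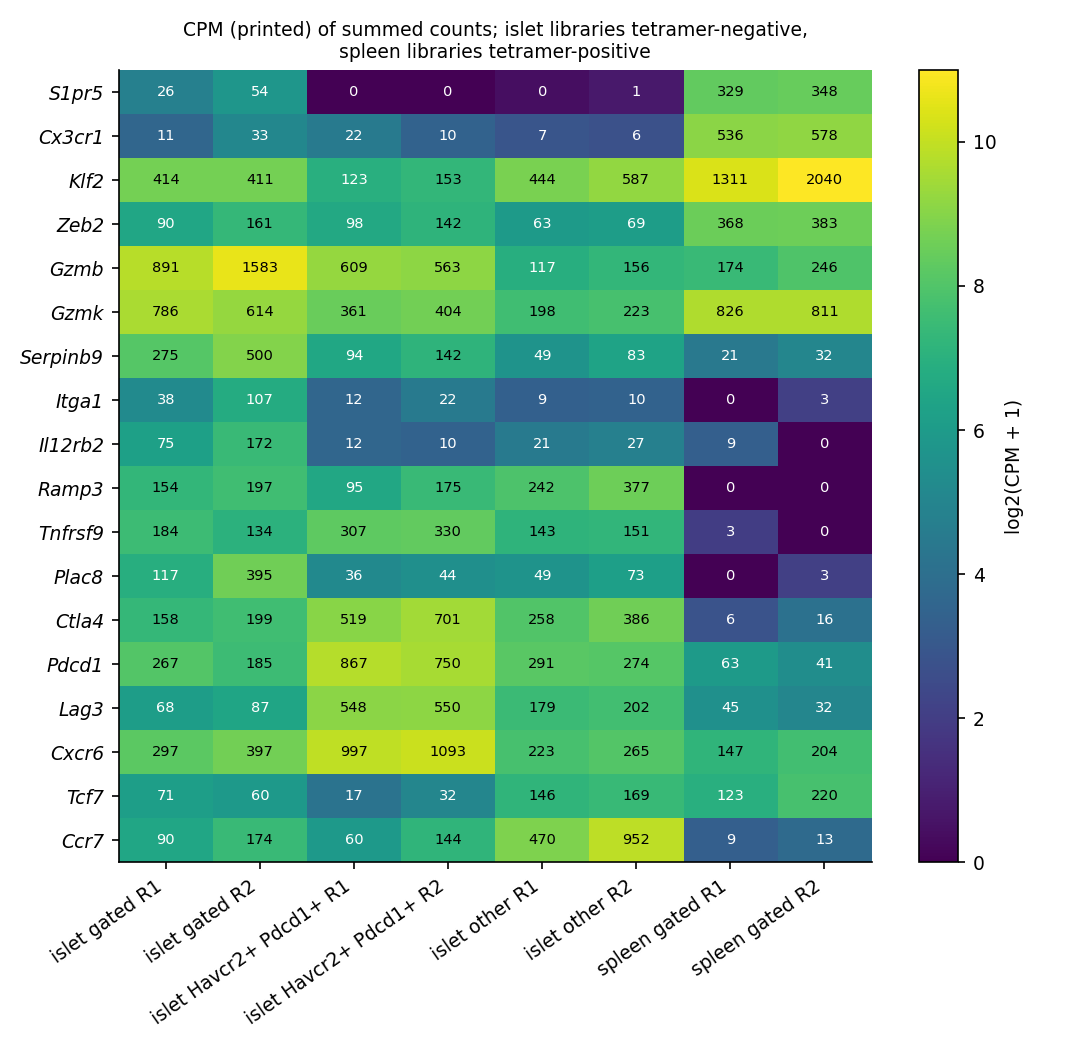
Heat map of 18 genes (rows) in 4 populations (gated, Havcr2+ Pdcd1+ and other tetramer-negative islet cells, and gated spleen cells), each in Rounds 1 and 2 (columns), colored by log2(CPM + 1) with the CPM printed. The gated islet cells carry more Gzmb, Serpinb9, Il12rb2 and Itga1 than the gated spleen cells, and less Cx3cr1, S1pr5 and Klf2.

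Comparisons within the gate that use the 5 tetramer-positive cells were limited by their 34134 UMIs. Between tetramer-positive and tetramer-negative gated islet cells 0% of 2558 tested genes were called higher and 0% lower by edgeR, with 212 at an unadjusted p under 0.05 and 1 in each direction by DESeq2, and the blocked fit called 3 higher and 19 lower. The difference between tetramer groups in the gated-to-other change was called for 0 of 9898 genes in the upward direction (0%) and 43 in the downward direction (0.434%), where 711 had an unadjusted p under 0.05 and DESeq2 called 3 and 2. Against the gated spleen cells, the tetramer-positive gated islet cells were higher for 2 of 2942 genes (0.068%), Tnfrsf9 and Dbi, and lower for 11 (0.374%), with 34 and 99 under the round block. Cx3cr1 and S100a4 were among the 11 and had no UMI in the 5 cells, and Ccl4 was another (−5.97).

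The clones of the gated cells ranged from 1 cell to expanded families. A receptor pair was assigned to 24 of 53 and 49 of 80 tetramer-negative gated cells, and 14 of 24 (58.3%, 95% exact interval 36.6 to 77.9) and 29 of 49 (59.2%, 44.2 to 73.0) belonged to clones of 2 or more cells, against 53.5% and 45.9% of the other cells. All 1 and 2 paired tetramer-positive gated cells did, against 98.2% and 98.8%. Over the 4 libraries the share was higher by 5.26 points (exact two-sided sign-flip test, p = 0.13, the smallest 4 libraries allow). No clone held a gated cell in more than 1 islet library, and 30 of the 66 clones were of 1 cell in their library. Tetramer-negative gated cells shared their clone with the spleen tetramer–positive cells in 0 of 24 and 1 of 49 cells (2.04%), against 11.6% and 3.40% of the other cells. Tetramer-negative spleen cells were not sequenced, so sharing with them could not be seen. Of the other paired cells, 239 of 2968 and 2 of 5434 had their clone in the islet tetramer–positive library of the round, against 0 gated cells in each round.

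Sister cells of the gated cells, which shared a clone but failed the gate, held several of the same transcripts at higher shares than cells of other clones. The gated cells were left out, clones were weighted equally, and the other clones of 2 or more cells in the same library served as the reference, with 11 and 21 clones against 225 and 380. Gzma UMIs were found in 58.7% and 49.9% of sister cells, on average over clones, against 8.44% and 10.8% in other clones. At least 1 Gzma+ sister cell was present in 8 of 11 and 17 of 21 clones against 53 of 225 and 115 of 380. Since the clones were picked by a gated cell, this is a description with no test.

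Other genes went with the clones as well. Ccr2 was found in 75.5% and 56.2% of sister cells against 25.5% and 18.8%, Gzmb in 66.4% and 47.6% against 17.2% and 16.8%, and Fasl in 62.7% and 57.1% against 23.1% and 24.8%. Klrg1, at 11.2% and 13.2% against 3.70% and 2.53%, was also more frequent, though most sister cells had no UMI of it. Serpinb9 was at 35.9% and 62.3% against 18.7% and 28.7%, and Gzmk at 88.6% and 77.6% against 51.9% and 48.4%. Pdcd1 (57.3% and 45.0% against 59.8% and 51.9%) and Tcf7 (22.4% and 36.1% against 36.3% and 40.8%) were not more frequent, and Xcl1 was less frequent (18.8% and 23.6% against 40.0% and 36.0%). Havcr2, whose absence defines the gate, was at 8.69% and 25.8% against 10.5% and 8.59%, with the rounds on opposite sides.

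**Figure D5:**
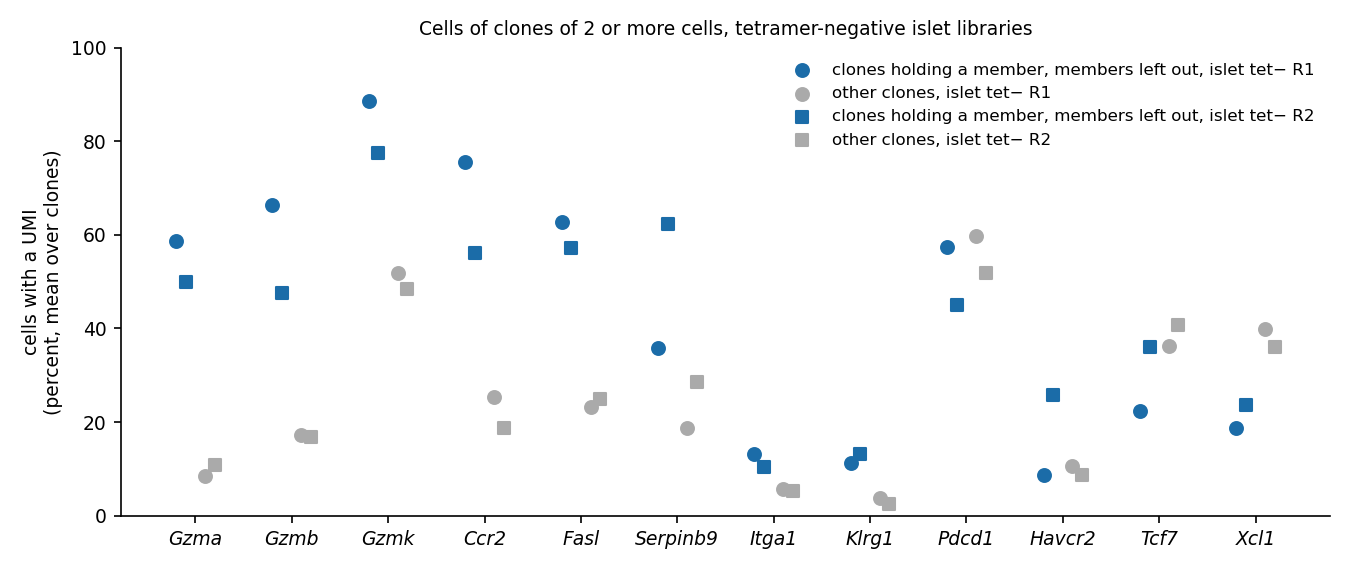
Percent of cells with a UMI of 12 genes (x axis), averaged over clones (y axis), in sister cells of the gated cells (blue) and in other clones of 2 or more cells (grey), in tetramer-negative Round 1 (circles) and Round 2 (squares). Gzma, Ccr2, Gzmb, Gzmk and Fasl lie higher in the clones of the gated cells in each round, and Xcl1 lower.

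The clone averages depend on weighting clones equally. Pooled over cells, Gzma was found in 51.7% of 58 sister cells against 4.70% in Round 1 but in 13.3% of 309 against 7.59% in Round 2, where the largest clone held 96 cells. In clones of 2 to 10 cells it was at 59.3% and 64.1% against 9.08% and 11.7%. Median depth was 5007 and 4967 UMIs in sister cells against 4570 and 4211, and the part of depth in these shares was not tested. In the tetramer-positive libraries Gzma was found in 7.87% of 89 and 7.83% of 230 sister cells, so the expanded TRAV16N clones shown above were mostly without it.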

How the data were processed

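The study's 6 single-cell RNA libraries and 6 matched TCR libraries (10x 5′ chemistry) were used as the authors deposited them. The RNA files hold raw UMI counts of 32285 genes per barcode, which the authors made with Cell Ranger on the mm10 (GRCm38) reference. Its version differs between the study's methods and the file headers. The TCR files hold assembled contigs per barcode. Cells were kept at under 5% mitochondrial UMIs and 200 to 3500 genes (spleen, 200 to 2000), the gate was applied, and counts were summed per library and class. The other cells of the same library served as the comparison. Doublets were not called, beyond a count of cells with more than 1 productive beta chain, and free RNA was not removed.

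The sums were tested with edgeR 4.0.16 (TMM, filterByExpr, quasi-likelihood F test, Benjamini-Hochberg) in R 4.3.3, blocked by library where classes of 1 library were compared. DESeq2 1.42.0 was an alternative. The low-count filter read the same sums, so a gene near 0 in 1 class could be tested only where the other class was high. The direction of such a gene is a description. The procedure was tested on simulated data. Each round was 1 pool of 10 mice and gave all 3 sorts, so the rounds pair the libraries. The main fits of gated cells between tetramer groups and between tissues left the round out. Their p-values are thus from unpaired fits, and the fit with the round as a block was an alternative. Round differences correlated across genes at r = 0.27 (tetramer groups), 0.23 (tissues within tetramer-positive cells) and 0.45 (tetramer-negative islets against spleen). The edgeR p-values rest on variance estimates shared across genes, with only 2 pools behind them. They are therefore no measure of how far the change of a single gene repeats between pools. The members and the 24 gene lists were chosen with earlier results of these data known. The comparison of tetramer-negative islet with spleen cells, the fits on tetramer-negative libraries alone and those on cells with 1 alpha and 1 beta chain were added after seeing the data, as was the background in cells with Ccr7 and Lef1 UMIs.

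Named genes were the 12 (gated against other) or 5 (other comparisons) largest changes per direction with an adjusted p under 0.05, 1 direction in all libraries and at least 20 CPM in the higher class, without gate genes and receptor segments, plus members of the lists. Pairs of CDR3 nucleotide sequences defined clones in cells with exactly 1 productive alpha and 1 productive beta chain. Intervals are exact binomial at 95%. A floor of 3 counts over a group gave the bounds on folds. Gene positions are from the GENCODE mouse annotation in GRCm38 coordinates. Gnly, Hobit, Ncr3 and Spi2, which stood in the lists, had no row under these names. Some genes are not reported here.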

Additional observations from a re-analysis of the deposited data

Results flagged for a closer look

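The change between gated and other cells differed between the tetramer groups for 43 of 9898 genes in an interaction test (edgeR, adjusted over these genes), and for all 43 it was lower in the tetramer-positive libraries. The 13 given here are those of the 43 that belong to the gene lists or to the genes named for gated against other cells. This rests on 5 tetramer-positive gated cells in 2 libraries, and DESeq2 called the difference for 2 of the 13, Gzmb and Ccl5. The difference fits were shifted by −1.62 in the median over all genes, and by −1.14 with DESeq2 size factors, so these genes are to be read against a shift of that size. The interaction values of Lgals1 (−1.62), Nkg7 (−1.63) and Gzmk (−1.64) were at about the shift itself. Those of Klrc1 (−1.90), Fasl (−2.07), Klrk1 (−2.32), S100a6 (−2.33), Itgb2 (−2.43), Ccl5 (−2.89), Rgs1 (−3.02) and Ccl4 (−5.32) were larger in size, whether beyond it was not tested, and Gzmb and S100a4 had no UMI in the tetramer-positive gated cells, so that their fitted values are not given. Levels below are pooled over the libraries of a tetramer group, gated against other cells.

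Gzmb stood at 1325 against 140 CPM in tetramer-negative and at 0 against 208 CPM in tetramer-positive libraries, where it was at least 2.36-fold lower at the floor of 3 counts (adjusted p = 4.13e-21). Among the other granule and killer receptor genes, Gzmk stood at 678 against 213 and 498 against 302 CPM (adjusted p = 0.0103), Fasl at 308 against 63.3 and 176 against 99.3 CPM (adjusted p = 0.0447), and Nkg7 at 2442 against 1326 and 2461 against 2522 CPM (adjusted p = 2.38e-05). Klrk1 stood at 237 against 93.8 and 176 against 217 CPM (adjusted p = 0.0109), and Klrc1 at 454 against 262 and 527 against 746 CPM (adjusted p = 0.000953).

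The chemokine genes turned with them. Ccl5 stood at 24746 against 8236 and 11748 against 17426 CPM (adjusted p = 9.69e-16), and Ccl4 at 464 against 177 and 29.3 against 320 CPM (adjusted p = 7.36e-08). Of the genes of the cytoskeleton, adhesion and signaling, S100a6 stood at 1285 against 767 and 791 against 1470 CPM (adjusted p = 6.11e-08), S100a4 at 378 against 209 and 0 against 356 CPM (adjusted p = 1e-07), Lgals1 at 2366 against 901 and 2930 against 2258 CPM (adjusted p = 5.38e-06), Itgb2 at 455 against 248 and 176 against 341 CPM (adjusted p = 0.00514), and Rgs1 at 887 against 356 and 234 against 483 CPM (adjusted p = 1.58e-07).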

How the results depend on the processing

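Calls depended on both tetramer-negative libraries, on the block and on the tool. Counts are higher then lower. For gated against other cells (120 and 185) they were 228 and 380 with DESeq2 size factors, 11 and 74 with DESeq2, 11 and 10 without the library block (no pairing of classes), 193 and 320 against other cells without Havcr2 and Mki67, 75 and 115 in cells of 3000 to 8000 UMIs, 50 and 54 with gate and test on separate UMIs, 60 and 99 with 1 alpha and 1 beta chain and 287 and 451 in tetramer-negative libraries. Without a low-count filter 336 were lower, and with 2 UMIs of Klrg1 and Gzma, which left the tetramer-negative libraries, 53 were higher. Leaving out 1 library gave 8 to 168 and 9 to 282. Against Havcr2+ Pdcd1+ cells (86 and 123), DESeq2 size factors gave 130 higher, DESeq2 13 and 34, no block 13 and 35, tetramer-negative libraries 190 and 220, and leaving out 1 library 5 to 114 and 20 to 149. Between tetramer groups of gated cells (0 and 0), DESeq2 gave 1 and 1, no filter 2 and 19, the block on paired rounds 3 and 19, and leaving out 1 library 0 to 5 and 0 to 12. Their difference of changes (0 and 43) became 12 lower with DESeq2 size factors, 3 and 2 with DESeq2, and 0 to 1 and 3 to 139 without 1 library. For tetramer-positive islet against spleen (2 and 11), the size factors gave 0 and 1, DESeq2 9 and 22, no filter 0 and 0, the paired block 34 and 99, and leaving out 1 library 0 to 6 and 0 to 11. For tetramer-negative islet against spleen (174 and 128), DESeq2 gave 101 and 53, no filter 279 higher, the paired block 574 and 504, and leaving out 1 library 0 to 174 and 0 to 101. The difference in gate share (−0.683 points) was −0.236 with 2 UMIs, −0.626 at 3000 to 8000 UMIs, −0.391 thinned and −0.719 to −0.647 without 1 library. The difference in expanded cells (5.26 points) was 16.9 with 2 UMIs, 9.03 in tetramer-negative libraries and 2.59 to 6.62 without 1 library. The difference in spleen-shared cells in the tetramer-positive libraries (5.45 points on average, from 3 gated cells with paired chains) was 6.90 against other cells without Havcr2 and Mki67. The differences in median UMIs and genes ran over 1351 to 2418 and 338 to 543 without 1 library. Ifitm1 turned to 1.72 with DESeq2, 1.01 without tetramer-negative Round 1 (−0.40 to 1.01 without 1 library), 0.41 at 3000 to 8000 UMIs and 1.05 with 1 alpha and 1 beta chain, Gzmb to −0.43 with DESeq2, Cxcr6 to −0.20 without the block, −0.19 and −0.26 without either tetramer-negative round (−0.26 to 0.28 without 1 library) and −0.33 with 1 alpha and 1 beta chain, and Zeb2 to −0.33 without tetramer-negative Round 2 (−0.33 to 0.77 without 1 library). The causes were not tested. Of the other values of single genes, 537 kept direction and call, 191 lost the call and 8 gained it. Depth limits every tetramer-positive value to 5 cells, with a floor of 87.9 CPM.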
